A study of Mus musculus with 12 samples.

Results

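Gene expression after a return to serum was compared with gene expression in cells that stayed without serum, in Min6, an insulin-producing line from a mouse insulinoma that serves as a model of the pancreatic beta cell. The comparison holds 8 of the 12 arrays of the series, chosen by the condition in the sample titles, with 4 arrays in each group. All cultures spent a first period of 5 days in DMEM with 15% fetal calf serum and 2-mercaptoethanol at 20% oxygen. The cultures of the defined condition (DC) then stayed for 10 days in DMEM-F12 without serum at 5% oxygen, with apo-transferrin, progesterone, putrescine and selenite added. The cultures of the return condition (RC) had 5 days of that serum-free culture at 5% oxygen, were passaged, and spent the last 5 days back in the serum medium at 20% oxygen. The remaining 4 arrays, of the classic condition (CC), came from cultures in serum at 20% oxygen throughout, and their levels are given beside the comparison where they help to place it.

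Serum, oxygen, base medium, mercaptoethanol and the 4 supplements changed together between DC and RC, so each difference belongs to the whole change of culture. RC cultures had 5 serum-free days and DC cultures 10, so the return and the shorter exposure cannot be told apart. The 4 arrays of a group are quadruplicates of 1 experiment, so p-values cover the spread between these samples only. In whole cultures, fewer cells of a type and less RNA per cell cannot be told apart either. Each array, of the Affymetrix mouse gene ST type, reads 35556 probe sets, each as a log2 expression value, and a difference of 1 on this scale is a 2-fold difference.

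When oxygen is scarce, prolyl hydroxylases no longer mark the alpha subunits of the hypoxia-inducible factors (HIF) for destruction, and HIF raises genes of glucose uptake, glycolysis, lactate export and mitophagy. Sterol supply is sensed through the SREBP transcription factors, which are released when membrane cholesterol is low and raise the enzymes of cholesterol and fatty acid synthesis. Serum carries lipoproteins, growth factors and BMP-type ligands, whose known readouts include the Id genes, the feedback phosphatases of the ERK kinases and immediate early genes.

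Median levels ran from 7.92 to 8.05 over the arrays, and the interquartile range from 2.42 to 2.75. Among the RC arrays RC 3 was the odd one, with a mean correlation of 0.976 with them against 0.989 to 0.990 for each of the other 3, and with the narrowest interquartile range (2.42). DC 4 (2.44) and DC 2 (2.47) had ranges nearly as narrow. The cells carried beta cell markers. Of 15 measured, 14 had a DC mean above the median of all values (7.99), among them the insulin gene Ins2 and the granule proteins Iapp and Chga, and 2 of the 15 passed the test (Nkx2-2 and Slc30a8, described below). The summed level of the 15 markers was 176.89 to 178.20 on the DC arrays and 174.99 to 177.18 on the RC arrays. The defining markers of fibroblasts (4, summed level 26.52 to 27.68 in DC and 26.41 to 27.94 in RC) and endothelium (3, 21.23 to 22 and 21.14 to 21.93) were all below the median of all values in DC. Of 4 immune markers (28.89 to 29.43 and 28.81 to 29.55), Cd68 was above it, and of 4 acinar and duct markers (27.27 to 28.66 and 27.47 to 28.80), Cela1. None of these 15 markers of other tissues passed the test. Markers of other islet cells are described with the hormones.

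RC and DC differed at 936 of the 35556 probe sets (2.63%; limma, Benjamini-Hochberg adjusted p under 0.05), with 516 higher (1.45%) and 420 lower (1.18%) in RC. The difference was at least 2-fold for 45 of the higher (0.127% of all) and 31 of the lower (0.0872%). This fit takes 1 spread from all 12 arrays, CC included, though spreads could differ, as in Ak4 (SD 0.67 in DC, 0.19 in RC and 0.06 in CC). With the 8 RC and DC arrays alone 462 probe sets passed, and Slc2a1, Kdm3a and Gys1 were among the named genes that did not. With all 12 arrays, 731 of the 19938 genes with a named probe set, each represented by its brightest, passed (3.67%). Of these, 391 rose (1.96%) and 340 fell (1.71%) in RC, and these shares are the background for the gene groups below. The median difference over the 19938 genes was -0.03. The gene lists were chosen with earlier results of these data known, so their shares describe the lists and test nothing. The RC and DC arrays did not overlap at 2237 probe sets (6.29%), and 899 of the 936 were among them. By gene the arrays did not overlap at 1683 (8.44%). The 15 largest rises and 15 largest falls named below were picked among genes with no overlap. So were the 8 rises and 8 falls named without RC 3, and the lack of overlap in all of these comes from the rule.

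**Figure D1:**
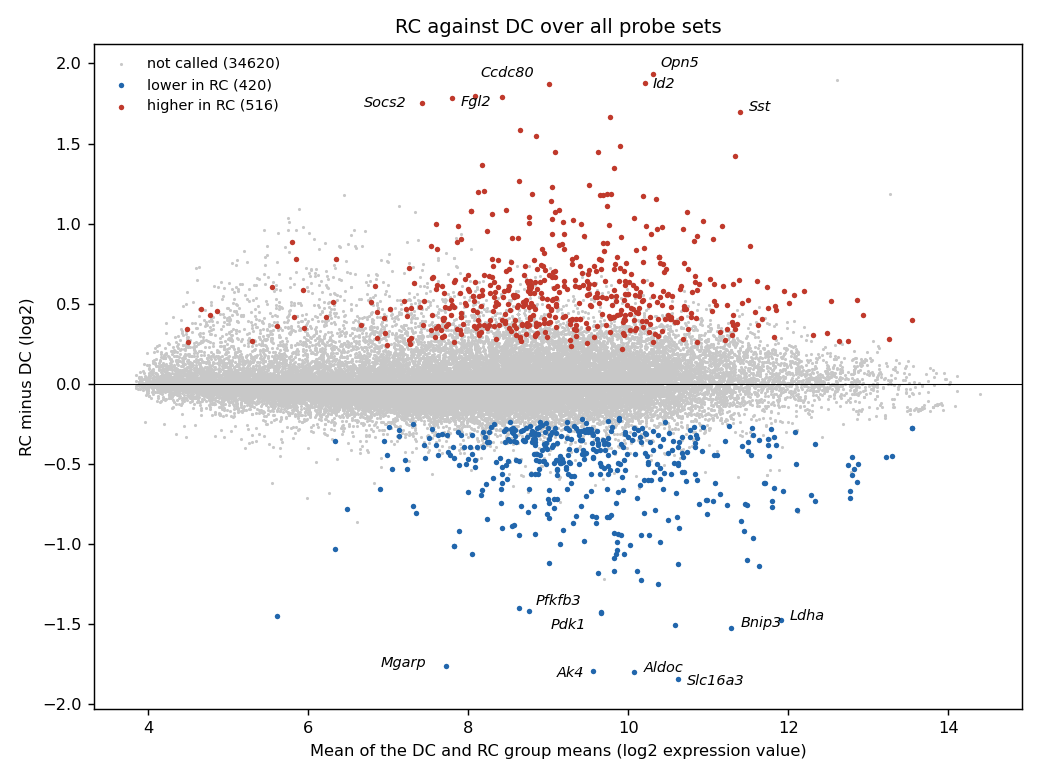
Difference between RC and DC means (log2, y axis) against the mean of both (log2 expression value, x axis) for all 35556 probe sets, with the 516 higher in RC in red, the 420 lower in blue and the others in grey. The named falls at the bottom are genes of the hypoxia response, from Slc16a3 at -1.84 to Pfkfb3 at -1.42, and the named rises at the top run from Sst at 1.70 to Opn5 at 1.93.

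The count depended on RC 3. Without it, 2892 probe sets passed (8.13%), 1981 higher (5.57%) and 911 lower (2.56%), and all 936 were among them. By gene 1520 passed without RC 3 (7.62%), 869 higher (4.36%) and 651 lower (3.27%). A fit that keeps all 12 arrays but weights each by its quality gave RC 3 a weight of 0.161 and called 1911 genes higher (9.58%) and 1869 lower (9.37%). Leaving out RC 1, RC 2 or RC 4 gave 522, 578 and 574. At the 2892, RC 3 differed from the DC mean by a median of 0.06 in the direction of the call, against 0.46 for the other RC arrays, and it was the nearer to DC at 87.4% of them. The same measure for each of the other RC arrays, over the probe sets called without that array, was 0.56 to 0.60 against 0.57 to 0.58. The 2892 were chosen without RC 3, and 1956 of them did not pass with it. Part of its nearness to DC therefore comes from the choice. The sets for RC 1, RC 2 and RC 4 had to pass with RC 3 included, so they are no matched control. In all 12 fits that leave out 1 array, 492 of the 936 were called (266 higher and 226 lower).

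Genes of the hypoxia response fell together in RC. Of 76 measured in 6 lists, 29 fell (38.2%, against 1.71% of all genes) and 1 rose, with a median difference of -0.29. The fallen genes covered lactate export, glycolysis, the mitochondrial response to low oxygen, histone demethylases and growth or stress genes, while the HIF subunits themselves did not pass. The largest falls were in Slc16a3, which exports lactate from the cell, and Aldoc, an aldolase of glycolysis. Their promoters, 250 bases before to 50 after the annotated start in RefSeq (GRCm38.p6), are shown as windows that carry the core letters of the hypoxia response element. The letters ACGTG were searched on both strands and are in capitals, and on the strand printed they read CACGT where the match lies on the other strand. The windows are chr11:120948817-120949116 (plus strand) for Slc16a3 and chr11:78322823-78323122 (plus strand) for Aldoc.
Slc16a3: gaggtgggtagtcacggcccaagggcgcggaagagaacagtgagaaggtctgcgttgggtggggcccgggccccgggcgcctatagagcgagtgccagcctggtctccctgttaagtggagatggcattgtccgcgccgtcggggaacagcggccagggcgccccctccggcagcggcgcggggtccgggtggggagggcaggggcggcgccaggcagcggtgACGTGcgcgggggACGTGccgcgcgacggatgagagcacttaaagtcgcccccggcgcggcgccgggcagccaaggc
Aldoc: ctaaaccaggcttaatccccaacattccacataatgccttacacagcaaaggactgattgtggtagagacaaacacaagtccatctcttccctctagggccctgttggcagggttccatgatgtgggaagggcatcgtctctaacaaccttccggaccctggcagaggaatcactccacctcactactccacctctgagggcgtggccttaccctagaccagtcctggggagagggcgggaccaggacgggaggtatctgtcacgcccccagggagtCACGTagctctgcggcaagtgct
The core was present in windows of 39 of 65 hypoxia genes with a promoter in the table (60.0%) and in 17 of the 26 that fell (65.4%), against 24.4% of 15614 genes with a probe set and 19.6% of all 32851 windows. The median GC content was 63.5% in the 92 windows of the hypoxia lists and 57.3% in the 19177 windows of genes with a probe set, and what GC content adds to the match was not tested.

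Slc16a3 read 11.38, 11.89, 12.03 and 10.86 on DC 1 to DC 4 and 9.57, 9.71, 9.70 and 9.81 on RC 1 to RC 4. The lowest DC array lay above every RC array, as the naming rule required of Slc16a3. It fell by 1.84 ± 0.20 (SE, n = 4 per group, 3.59-fold lower, limma adjusted p = 0.00033). In this main fit each SE and adjusted p takes its spread from all 12 arrays, CC included. With the 8 RC and DC arrays alone the limma adjusted p of Slc16a3 was 0.0058. Among 12 genes of transport and glycolytic control 5 fell and none rose. Pfkfb3, which makes the activator of phosphofructokinase, read 9.81, 9.72, 9.55 and 8.79 in DC and 8.05, 7.99, 7.97 and 8.16 in RC (-1.42 ± 0.18), and the glucose transporter Slc2a1 read 11.99, 12.28, 12.56 and 11.33 and 10.75, 10.96, 10.94 and 11.09 (-1.10 ± 0.20). The groups did not overlap in either gene, which the naming rule required of Pfkfb3, and DC 4 was the lowest DC array in both. Pfkfb4 (-0.32) and the pyruvate dehydrogenase kinase Pdk2 (-0.28) also fell. The glucose transporter of beta cells, Slc2a2, differed by -0.12 and the lactate importer Slc16a1 by 0.07, and neither passed. Leaving out CC 1, DC 1, DC 2, DC 3, RC 1, RC 2 or RC 4 brought the 5 to 3, and the call of Pfkfb4 ended with each of these and without CC 3 or CC 4 (limma adjusted p up to 0.13). That of Pdk2 ended without CC 1 or any single DC or RC array other than RC 3.

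Of 14 glycolytic enzymes 6 fell, with a median of -0.56 for the list. Aldoc read 10.93, 11.09, 11.42 and 10.46 in DC and 9.23, 9.05, 9.24 and 9.18 in RC, and fell by 1.80 ± 0.15 (3.49-fold; limma adjusted p = 5e-05). Ldha, the lactate dehydrogenase subunit that favours lactate formation, read 12.62, 12.87, 13.03 and 12.07 and 11.18, 10.96, 11.24 and 11.29 and fell by 1.48 ± 0.16. In both genes every RC array was below every DC array, as the naming rule required, and DC 4 was again the lowest of its group. The phosphofructokinases Pfkl (-1.22 ± 0.14) and Pfkp (-0.90 ± 0.15), Tpi1 (-0.67) and Aldoa (-0.57) also fell. Ldhb, the subunit that favours the reverse reaction, was the single gene of the 6 lists that rose (0.49). Pgk1 (-0.80, limma adjusted p = 0.0547) and Pgam1 (-0.54 at its brightest probe set, 0.0786) passed without RC 3 or without DC 4, which made 8 falls, and Pgk1 also without CC 3. Another probe set of Pgk1 passed with all arrays (-0.79, limma adjusted p = 0.046). Without DC 2, DC 3, RC 1 or RC 2 the call of Ldhb ended.

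Among 9 genes of the mitochondrial response to low oxygen 5 fell, with a median of -0.77. Ak4, an adenylate kinase of the matrix, read 10.60, 10.71, 11.05 and 9.49 in DC and 8.88, 8.45, 8.58 and 8.75 in RC and fell by 1.80 ± 0.25, while its other probe set fell by 0.56. Mgarp, which links mitochondria to their transport, read 8.61, 8.72, 9.53 and 7.55 and 6.90, 6.79, 6.74 and 6.90 (-1.77 ± 0.29). The spread within DC was wide in both genes, from DC 4 at the bottom to DC 3 at the top, and narrow within RC. The mitophagy receptor Bnip3 read 11.81, 12.44, 12.50 and 11.45 and 10.67, 10.36, 10.43 and 10.66 (-1.52 ± 0.20), with another probe set at -1.51, and its relative Bnip3l fell by 0.77. Pdk1, the kinase that shuts pyruvate dehydrogenase, read 10.24, 10.75, 11 and 9.54 and 9.02, 8.89, 8.81 and 9.06 (-1.43 ± 0.23). CC levels of these genes were lower than RC levels in the means, at 7.72 for Ak4, 9.59 for Bnip3 and 8.07 for Pdk1, against 8.67, 10.53 and 8.95 in RC. Outside the lists, the mitochondrial protein Fam162a (-1.25 ± 0.21) and Prelid2 (-1.40 ± 0.23) were among the 15 largest falls.

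Of 10 HIF subunits and oxygen sensors 1 fell. It was Egln3, a prolyl hydroxylase that HIF itself raises, with DC arrays at 9.23, 9.09, 9.46 and 8.21 and RC arrays at 8.17, 7.86, 8.22 and 8.18. DC 4 lay within the RC range, and the call (-0.89 ± 0.20, limma adjusted p = 0.039) ended without any single array other than DC 4 and RC 3. The related Egln1 (-0.60 ± 0.15, limma adjusted p = 0.057) passed without RC 3 or without DC 4. Hif1a (0.05), Epas1 (-0.09), Arnt (0.16) and Vhl (-0.09) did not pass. Of 11 oxygen-dependent demethylases and collagen hydroxylases 4 fell, namely the histone demethylases Kdm3a (-0.81 ± 0.15) and Kdm4b (-0.72 ± 0.09), the collagen prolyl hydroxylase P4ha1 (-0.69 ± 0.13) and Jmjd6 (-0.54 ± 0.07). Without RC 1 the call of P4ha1 ended (limma adjusted p = 0.051).

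Of 20 growth and stress genes of the hypoxia response 8 fell, with a median of -0.39. Ndrg1, a gene often used as a readout of low oxygen, read 10.55, 10.79, 11.02 and 10.40 in DC and 9.56, 9.38, 9.67 and 9.47 in RC (-1.17 ± 0.11), with no overlap, as the naming rule required. Ddit4, an inhibitor of mTOR signalling, fell by 0.93 ± 0.14, Ankrd37 by 0.88, Ier3 by 0.48, Narf by 0.40 and the angiogenic factor Vegfa by 0.38. Gys1, a glycogen synthase, fell by 1.17 ± 0.24, but DC 4 (9.44) lay near the RC arrays (9.14 to 9.40) and away from the other DC arrays (10.57 to 10.82), and its call ended without DC 1, DC 2, DC 3, RC 1 or RC 2 (limma adjusted p up to 0.078). The hormone adrenomedullin (Adm, -1.06 ± 0.24) had DC 4 (7.66) within the RC range (7.30 to 7.70) and lost its call without any single array other than DC 4 and RC 3. Ier3 lost its call without the same arrays as Adm (limma adjusted p up to 0.17), and Vegfa without DC 2, DC 3, RC 1 or RC 2 (up to 0.065). Without DC 4, Stc1 (-1.60), Ero1a (-0.80), Rora (-0.54) and Mxi1 (-0.49) also passed, which made 12. Without DC 2, DC 3, RC 1 or RC 2 there were 4, and 5 without DC 1.

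DC 4 was the lowest DC array for 27 of the 29 fallen hypoxia genes and DC 3 the highest for 22. The median distance from the DC mean over the 29 was -0.48 for DC 4, 0.29 for DC 3 and 0.02 to 0.14 for the other DC arrays, against -0.82 to -1.08 for the RC arrays. The 29 were picked by their falls, so the distance of the RC arrays comes from that choice. Without RC 3, 33 of the 76 fell, and without DC 4, 36. In the fit without DC 4, 861 probe sets passed (2.42%), 403 higher (1.13%) and 458 lower (1.29%), and 689 genes (3.46%), 315 higher (1.58%) and 374 lower (1.88%). The count of hypoxia genes was 21 or 22 when DC 2, DC 3, RC 1 or RC 2 was left out. The fit of the 8 RC and DC arrays alone called 18 of the 76 lower, with 201 probe sets called lower in all. The labels name no difference between the DC flasks, and what set DC 4 and DC 3 apart was not tested.

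**Figure D2:**
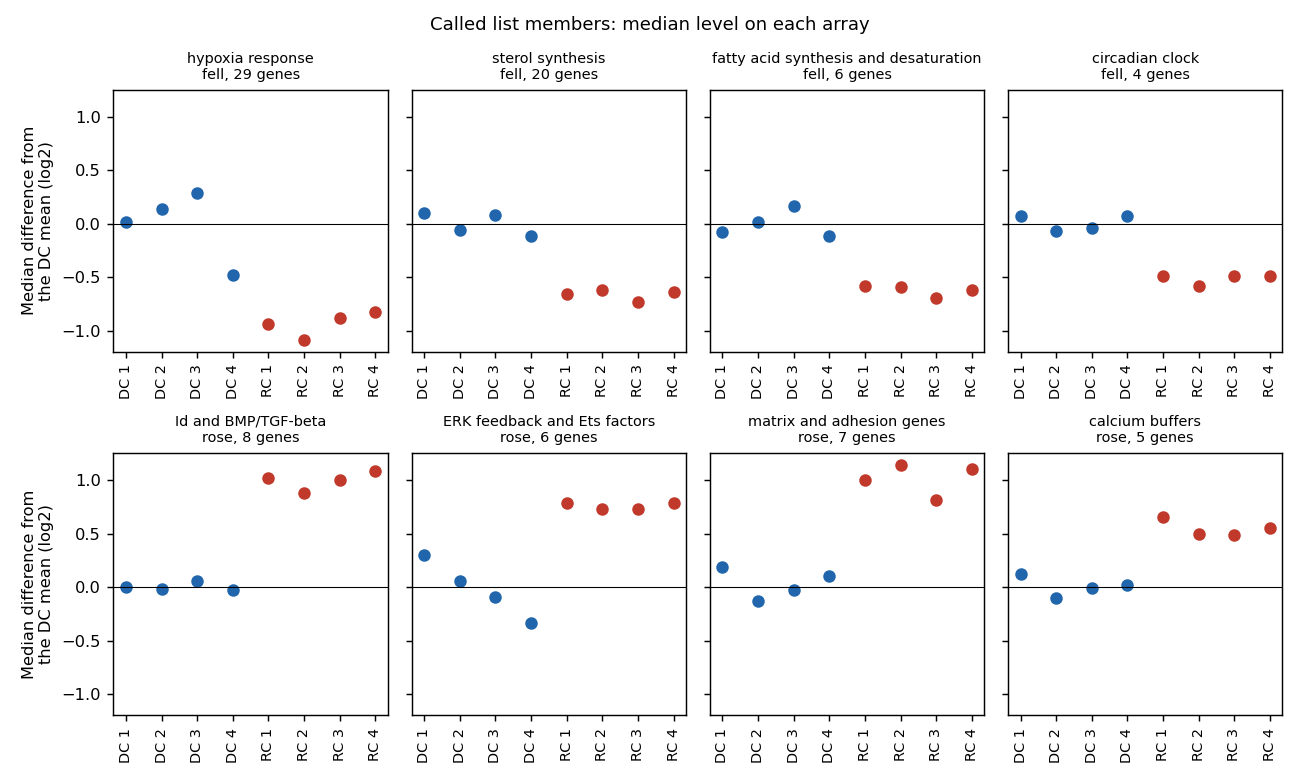
Median log2 difference from the DC mean on each DC (blue) and RC (red) array, over the called members of 8 gene groups. In the hypoxia panel DC 4 lies at -0.48, between the other DC arrays and the RC arrays, while in the sterol panel the DC arrays span -0.11 to 0.10 and the RC arrays -0.73 to -0.62. Members were picked by their calls, so the gap between DC and RC in each panel comes from that choice.

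The pathway of cholesterol synthesis fell nearly whole. Of 26 genes of sterol synthesis and its regulators 20 fell (76.9%, against 1.71% of all genes) and none rose, with a median difference of -0.58. All 8 measured enzymes of the mevalonate pathway and of squalene formation and oxidation fell, as did 7 of 9 of the later steps and 5 of 9 regulators and uptake genes. Hmgcs1, which makes the substrate of the rate-limiting reductase, fell most. Its promoter window, chr13:119690101-119690400 on the plus strand in RefSeq (GRCm38.p6), is shown because it was the single gene of the sterol lists with a match to the sterol regulatory element TCACNCCAC, searched on both strands and set in capitals.
Hmgcs1: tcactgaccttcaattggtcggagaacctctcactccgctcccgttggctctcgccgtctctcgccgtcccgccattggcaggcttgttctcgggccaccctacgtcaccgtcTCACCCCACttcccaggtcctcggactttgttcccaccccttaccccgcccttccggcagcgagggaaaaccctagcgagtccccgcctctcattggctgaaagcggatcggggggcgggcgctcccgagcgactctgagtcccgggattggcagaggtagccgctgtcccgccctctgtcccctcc
The element was found in 1 of 22 sterol genes with a promoter in the table (4.55%), in 1.40% of 15614 genes with a probe set and in 1.24% of all windows. It was also found in 2 of 65 hypoxia genes (3.08%). Aldoc was among them, and its match is not set in capitals in the window above. The core ACGTG was present for 5 of the 22 (22.7%).

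Hmgcs1 read 10.63, 10.40, 10.27 and 10.16 in DC and 9.37, 9.31, 9.20 and 9.23 in RC, with every RC array below every DC array. It fell by 1.09 ± 0.10 (2.13-fold; limma adjusted p = 0.00012). The farnesyl diphosphate synthase Fdps read 11.05, 10.90, 10.85 and 10.89 and 10.07, 9.95, 10.19 and 10.07 (-0.85 ± 0.08). Here the 4 arrays of each group were close together and apart from the other group. Fdft1, which forms squalene, fell by 0.76 ± 0.07, the isomerase Idi1 by 0.82 ± 0.16, Mvd by 0.62, the squalene epoxidase Sqle by 0.62, Pmvk by 0.44 and Mvk by 0.30. The call of Pmvk ended without CC 1, CC 2, CC 3, DC 1, DC 2, DC 3, RC 1, RC 2 or RC 4 (limma adjusted p up to 0.15). That of Mvk ended without DC 1, DC 4, RC 1, RC 2 or RC 4 (up to 0.092) and that of Idi1 without DC 3 or RC 2 (up to 0.054), so that without RC 2 the 8 came to 5.

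Among the later enzymes, Tm7sf2, a sterol reductase, read 10.14, 10.28, 10.76 and 10.33 in DC and 9.30, 9.36, 9.26 and 9.44 in RC (-1.04 ± 0.11). Lss, which closes the sterol ring to lanosterol, read 10.83, 10.80, 10.87 and 10.46 and 9.76, 9.79, 9.78 and 9.84 (-0.95 ± 0.09). Both separated the groups with no overlap. The demethylation enzymes Nsdhl (-0.99 ± 0.11), Msmo1 (-0.92 ± 0.11), Hsd17b7 (-0.56) and Cyp51 (-0.49) fell, as did Dhcr7 (-0.60), the last enzyme of one branch. The call of Cyp51 ended without DC 2, DC 3, RC 1 or RC 2 and that of Hsd17b7 without DC 3, RC 1, RC 2 or RC 4 (limma adjusted p up to 0.073 and 0.069). Sc5d (-0.25) and Ebp (-0.05) did not pass.

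Of the 9 regulators and uptake genes 5 fell, both SREBP genes among them, and 4 did not pass. Srebf1 and Srebf2 encode the SREBP factors. Srebf1 read 11.46, 11.39, 11.48 and 11.36 in DC and 10.61, 10.76, 10.66 and 10.73 in RC (-0.73 ± 0.06). Srebf2 read 11.26, 11.02, 11.15 and 11.23 and 10.52, 10.56, 10.55 and 10.62 (-0.60 ± 0.06). In both, every RC array was below every DC array. Insig1, an SREBP target that retains the factors in the endoplasmic reticulum, fell by 0.50 ± 0.06, the sterol carrier Stard4 by 0.50 ± 0.09 and Mylip, which degrades the LDL receptor and is raised by the sterol-sensing LXR receptors, by 0.37. The call of Mylip ended without any single DC or RC array other than DC 4 and RC 3 (limma adjusted p up to 0.099). The partner Scap (-0.06) did not pass. Of 6 measured LXR and sterol efflux genes 1 fell, the cholesterol exporter Abca1 (-0.80 ± 0.09), and Abcg1 (-0.27) passed when DC 4 was left out. The count over the 3 sterol lists was 20 without RC 3 and 14 to 20 with 1 array left out.

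In fatty acid synthesis and desaturation 6 of 16 genes fell and none rose, with a median of -0.29. Acss2, which makes acetyl-CoA from acetate, read 9.90, 10.10, 10.15 and 9.61 in DC and 8.86, 8.96, 9.03 and 8.99 in RC (-0.98 ± 0.11). The desaturase Scd1 read 11.92, 12.02, 12.30 and 11.95 and 11.14, 11.12, 10.85 and 11.21 (-0.97 ± 0.12), and fatty acid synthase Fasn read 12.28, 12.19, 12.11 and 12.03 and 11.47, 11.59, 11.46 and 11.47 (-0.65 ± 0.07). None of the 3 overlapped between the groups. The citrate carrier Slc25a1 (-0.56 ± 0.09), Scd2 (-0.45) and Fads2 (-0.38) also fell. The call of Scd2 ended without DC 2, DC 3, RC 1 or RC 2 and that of Fads2 without DC 3, DC 4 or RC 1 (limma adjusted p up to 0.065 for both). Acaca, an acetyl-CoA carboxylase, fell at 1 probe set (-0.42, limma adjusted p = 0.027) and did not pass at its brightest (-0.35).

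Genes known to answer serum rose in part. Of 20 Id genes and members of BMP or TGF-beta signalling 8 rose (against 1.96% of all genes), and of 16 ERK feedback genes and Ets factors 6 rose (37.5%), while of 22 immediate early genes only the 3 of the Nr4a family rose. Id2, which blocks basic helix-loop-helix factors, read 9.36, 9.10, 9.42 and 9.19 in DC and 11.40, 10.97, 11.02 and 11.20 in RC and rose by 1.88 ± 0.13 (3.68-fold; limma adjusted p = 1.5e-05). Id1 read 8.14, 8.57, 8.38 and 8.33 and 9.84, 9.67, 9.85 and 9.86 (1.45 ± 0.14), and Id3 read 7.61, 7.70, 7.82 and 7.96 and 8.91, 8.70, 8.76 and 8.94 (1.06 ± 0.13). In all 3 every RC array was above every DC array, which the naming rule required of Id1 and Id2. Id4 (0.07) did not pass. Inhba, the subunit of activin A, read 9.17, 8.90, 8.89 and 8.65 and 10.31, 10.26, 10.36 and 10.46 (1.45 ± 0.09), and the BMP antagonist Grem1 (0.92), the inhibitory Smad7 (0.46), Skil (0.48) and Smad9 (0.29) rose. The call of Smad9 ended without any single array other than RC 2 and RC 3, and that of Skil without DC 2, DC 3, DC 4, RC 1, RC 2 or RC 4 (limma adjusted p up to 0.15 and 0.1). Without DC 4, 6 rose and Tgfb2 fell (-0.49).

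Dusp6, the cytoplasmic phosphatase of ERK, read 8.10, 7.88, 7.97 and 7.48 in DC and 9.45, 9.42, 9.26 and 9.63 in RC, and rose by 1.58 ± 0.17 with no overlap, as the naming rule required. The Ets factor Etv5 read 9.04, 8.34, 8.39 and 8.12 and 9.68, 9.54, 9.54 and 9.69 (1.14 ± 0.15), and Etv4 rose by 0.55. For the 6 risen genes DC 1 was the highest DC array in all and DC 4 the lowest in 5, with medians of 0.30 and -0.33 from the DC mean against 0.73 to 0.78 for the RC arrays. The distance of the RC arrays comes from the choice of risen genes. The phosphatases Dusp4 (0.88 ± 0.20) and Dusp5 (0.60) and the feedback inhibitor Spry4 (0.60 ± 0.13) rose too. The call of Dusp4 ended without CC 1, CC 4, DC 3, RC 1, RC 2 or RC 4, and that of Spry4 without DC 2, DC 3, DC 4, RC 1, RC 2 or RC 4 (limma adjusted p up to 0.1 and 0.087).

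The orphan nuclear receptors Nr4a1 (0.98 ± 0.20), Nr4a2 (0.71 ± 0.11) and Nr4a3 (0.43 ± 0.07) are immediate early genes. Nr4a2 read 9.45, 9.25, 8.88 and 9.03 in DC and 9.92, 9.81, 9.80 and 9.90 in RC. The call of Nr4a1 ended without DC 3, DC 4, RC 1, RC 2 or RC 4 (limma adjusted p up to 0.085). Fos (0.11), Egr1 (-0.37), Myc (-0.09) and Jun (-0.18) did not pass, and Jun fell when DC 4 was left out (-0.26). Of 17 cytoskeleton genes of the serum response factor type, Tpm1 alone rose (0.66 ± 0.11). Of 18 JAK-STAT receptors, STATs and feedback genes 2 rose, the feedback inhibitors Cish (0.44 ± 0.06) and Socs2. The brightest probe set of Socs2 rose by 0.46 ± 0.06, and its other one read 6.50, 6.73, 6.75 and 6.20 in DC and 8.45, 8.20, 8.05 and 8.50 in RC and rose by 1.75 ± 0.17, so the probe sets differ in size but not in direction. Without RC 3 the list had 4 rises, with Il6st (0.46) and Lifr (0.39), and 2 falls, Stat2 (-0.30) and Stat5a (-0.27), and without DC 4 Stat6 fell (-0.31). In the insulin and IGF list Igfbp4, which binds IGF, rose (0.50 ± 0.08), joined by Irs1 without RC 3 or DC 1 (0.29 and 0.30).

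**Figure D3:**
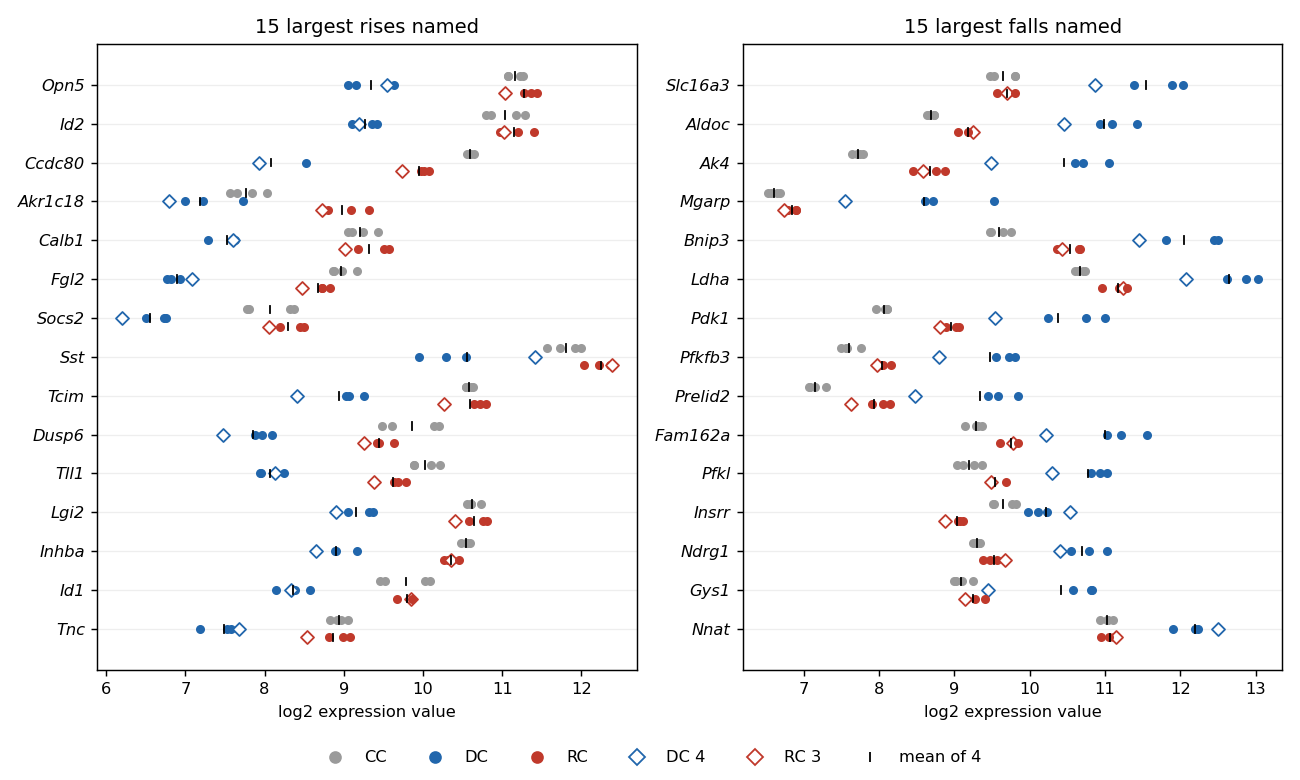
Log2 expression value on each array (x axis) of the 15 genes with the largest rises (left) and the 15 with the largest falls (right), for CC (grey), DC (blue) and RC (red), with DC 4 and RC 3 as open diamonds and a black bar at each group mean. RC and DC do not overlap in any of the 30 genes, because the rule that named them required it. DC 4 is the DC array nearest to RC in Slc16a3, Ak4, Mgarp and Gys1 among others.

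Opn5, an opsin sensitive to short-wave light, rose the most of the genes named here. It read 9.63, 9.06, 9.15 and 9.54 in DC and 11.27, 11.44, 11.04 and 11.36 in RC and rose by 1.93 ± 0.13 (3.82-fold; limma adjusted p = 1.4e-05), with a CC mean of 11.16. Several secreted or matrix proteins followed. Ccdc80, a secreted protein of the matrix, read 8.52, 7.92, 7.94 and 7.93 and 9.97, 10.01, 9.74 and 10.08 (1.87 ± 0.12), and Fgl2, a fibrinogen-like protein, read 6.82, 6.77, 6.93 and 7.08 and 8.72, 8.72, 8.47 and 8.83 (1.78 ± 0.10). Tll1, a protease that processes procollagen and BMP antagonists, read 8.25, 7.95, 7.94 and 8.13 and 9.68, 9.64, 9.38 and 9.78 (1.55 ± 0.11). RC 3 was the lowest RC array in all 4 of these genes. It lay above every DC array, which the naming rule required. The secreted protein Lgi2 (1.48 ± 0.11), the matrix glycoprotein Tnc (1.36 ± 0.13) and Tcim (1.67 ± 0.16) were also among the 15 largest rises.

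In the list of 28 matrix and adhesion genes 7 rose and none fell, while the list's median was -0.05. Besides Ccdc80, Fgl2 and Tll1 these were Fndc1 (0.98 ± 0.21), the laminin chain Lamc1 (0.53) and the laminin-binding integrins Itga7 (0.76) and Itga6 (0.34). Fndc1 spread from 9.19 to 10.34 in DC and from 10.43 to 10.87 in RC, and its call ended without DC 2, DC 3, RC 1, RC 2 or RC 4 (limma adjusted p up to 0.097). That of Itga6 ended without these or DC 1 (up to 0.12). Without RC 3, Fn1 (-0.33) and Timp2 (-0.33) fell, and without DC 1 Timp2 fell (-0.36). The fibroblast list of 10 genes had no call, with Lum at -0.07 and Col3a1 at -0.12.

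Insulin itself did not differ beyond its spread. Ins2 read 13.02, 13.01, 13.06 and 13.10 in DC and 13.05, 13.03, 12.94 and 13.04 in RC, near the top of the scale, and Hes3, the transcriptional repressor named in the series title, read 7.17, 7.47, 7.30 and 7.50 and 7.33, 7.26, 7.62 and 7.33, below the median of all values. The groups overlapped in both genes. The interval of the Hes3 difference ran from -0.19 to 0.24 (95%). Of 22 Hes, Hey and Notch genes 1 rose, Hey1 (0.64 ± 0.15), whose call ended without CC 2, CC 3, DC 2, DC 4, RC 1, RC 2 or RC 4 (limma adjusted p up to 0.15), and without RC 3 Dtx4 also fell (-0.24). Hes1 (0.25) did not pass.

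Another islet hormone rose. Somatostatin (Sst), which inhibits insulin and glucagon release, read 10.54, 9.95, 10.29 and 11.42 in DC and 12.36, 12.03, 12.39 and 12.22 in RC, and rose by 1.70 ± 0.24 (3.25-fold; limma adjusted p = 0.0019). DC 4 was above the other DC arrays and, as the naming rule required, below the lowest RC array, and the CC mean was 11.81. Hhex, the transcription factor of the delta cells that normally make somatostatin, had a low DC mean of 6.74 and an RC mean of 6.66 and did not pass. The summed level of the 4 measured markers of alpha, delta and PP cells was 38.07 to 39.42 in DC and 39.74 to 40.70 in RC, and Sst was the member that passed. Glucagon (Gcg) was at 12.24 and 12.37. Of 11 other islet hormones and their regulators, Cck rose besides Sst, from 13.22, 13.31, 13.45 and 13.44 to 13.79, 13.71, 13.69 and 13.81 (0.40 ± 0.06), and without DC 4 Nts fell (-0.25).

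Of 18 beta cell transcription factors 2 fell, Pax6 (-0.35 ± 0.05) and Nkx2-2 (-0.34 ± 0.07), and the list's median was -0.14. Pax6 read 11.93, 11.90, 11.94 and 11.92 in DC and 11.58, 11.60, 11.49 and 11.63 in RC, and its arrays were tightly grouped in both. The call of Nkx2-2 ended without RC 1 or RC 4 (limma adjusted p up to 0.066). Pdx1 (0.08), Nkx6-1 (-0.17), Mafa (-0.28) and Neurod1 (-0.15) did not pass. Of 23 granule and secretion genes 4 fell. Sytl4, the effector granuphilin that docks insulin granules, read 9.89, 9.77, 10.10 and 10.07 and 9.08, 9.14, 9.09 and 9.22 and fell by 0.83 ± 0.08. The granule zinc transporter Slc30a8 (-0.45 ± 0.08), Scg5 (-0.36 ± 0.08) and Ptprn2 (-0.28 ± 0.06) fell less. The calls of Scg5 and Ptprn2 both ended without DC 2, DC 3, RC 1 or RC 2, which left 2. That of Ptprn2 also ended without DC 4, CC 3 or CC 4, and without RC 3 Pcsk1n fell (-0.23) and Chgb rose (0.24). Nnat, an imprinted gene expressed in beta cells, fell by 1.14 ± 0.11, from 12.23, 11.90, 12.19 and 12.50 to 11.12, 10.94, 11.15 and 11.05.

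Among 13 secretagogue receptors 2 fell and 2 rose. The incretin receptor Gipr read 10.61, 10.62, 10.78 and 10.51 in DC and 9.66, 9.84, 9.49 and 9.76 in RC and fell by 0.95 ± 0.08, and the somatostatin receptor Sstr3 fell by 0.44 ± 0.07. The neurokinin receptor Tacr3 read 7.79, 7.63, 7.90 and 7.74 and 8.72, 8.68, 8.61 and 8.86 and rose by 0.95 ± 0.07. Each of these 3 separated the groups on every array. The dopamine receptor Drd2 (0.24 ± 0.05) lost its call without any single array other than DC 1 and RC 3, and without DC 1 Glp1r (-0.32) and Ffar1 (-0.49) fell. The receptor kinase Insrr, a relative of the insulin receptor, read 9.98, 10.11, 10.23 and 10.53 and 9.07, 9.05, 8.88 and 9.11 and fell by 1.19 ± 0.11. Its CC mean was 9.65, between the RC and DC arrays.

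Of 18 calcium buffers, pumps and cAMP genes 5 rose and 1 fell. Calb1, the cytosolic calcium buffer calbindin, read 7.63, 7.28, 7.59 and 7.60 in DC and 9.57, 9.18, 9.02 and 9.51 in RC and rose by 1.79 ± 0.13 (3.47-fold). The plasma membrane calcium pump Atp2b1 rose by 0.46 ± 0.06 with no overlap. S100a10 (0.58 ± 0.10), the release channels Ryr2 (0.67 ± 0.14) and Itpr3 (0.36) rose, and the pump Atp2a3 of the endoplasmic reticulum fell (-0.39). Without DC 3, RC 1 or RC 2, 4 rose and none fell. The call of Ryr2 ended without these or RC 4 (limma adjusted p up to 0.075). Of 15 excitability channels the calcium channel Cacna1a rose (0.37 ± 0.06) and Trpm5 fell (-0.37 ± 0.09). The call of Trpm5 ended without CC 1, CC 3, CC 4, DC 2, DC 3, DC 4, RC 1, RC 2 or RC 4, and without DC 4 Kcnma1 rose (0.47).

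**Figure D4:**
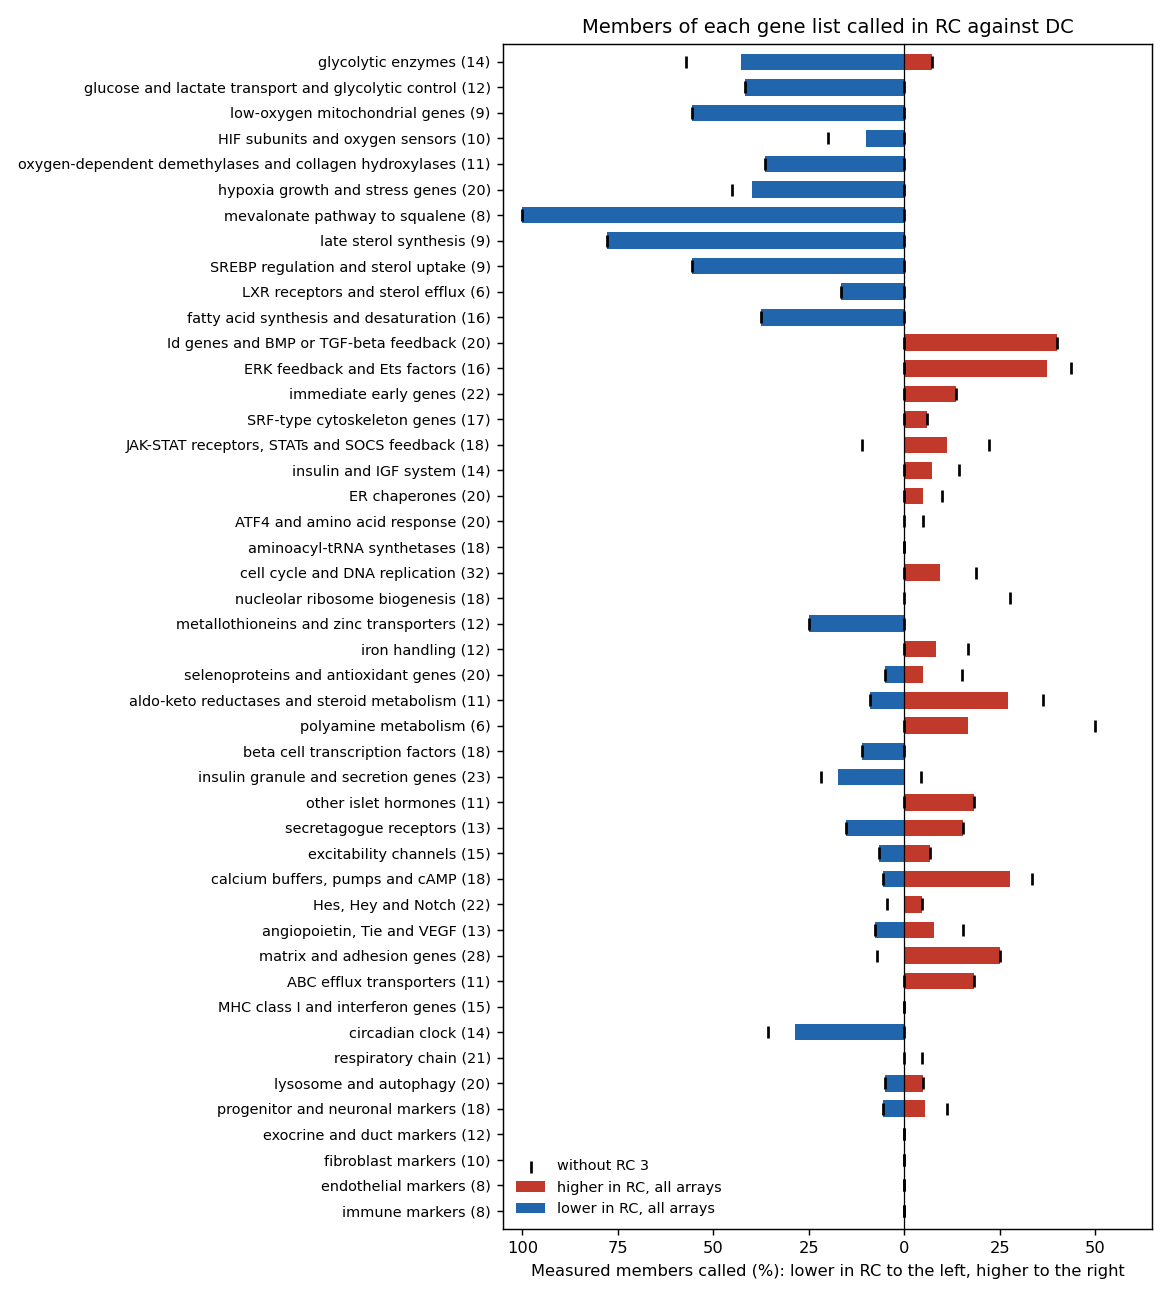
Share of measured members of each of 46 gene lists (number in brackets) that passed the test, with falls in RC to the left in blue and rises to the right in red, and black ticks for the shares without RC 3. The longest bars are the mevalonate (100.0% fell) and late sterol (77.8% fell) lists on the left and the Id and BMP (8 of 20 rose) and ERK feedback (37.5% rose) lists on the right.

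Genes that handle the serum-free medium's supplements were described from lists for metals, steroids, polyamines and selenoproteins. The metallothioneins Mt1 and Mt2, which bind zinc and copper, were very high and fell slightly, Mt1 from 13.17, 13.13, 13.17 and 13.03 in DC to 12.66, 12.58, 12.61 and 12.63 in RC (-0.51 ± 0.06) and Mt2 by 0.46 ± 0.07. They and Slc30a8 were the 3 of 12 members that fell. Of 12 iron genes 1 rose, the iron exporter Slc40a1, from 7.25, 7.43, 7.55 and 7.64 to 8.42, 8.30, 8.35 and 8.40 (0.90 ± 0.09), joined without RC 3 or DC 3 by the transferrin receptor Tfrc (0.60 and 0.62). Akr1c18, which inactivates progesterone, read 7.73, 7.00, 7.22 and 6.79 in DC and 9.32, 8.80, 8.72 and 9.09 in RC and rose by 1.79 ± 0.19, with a CC mean of 7.77. The lowest RC array lay above the highest DC array, as the naming rule required, by about 1 on the log2 scale. Akr1b8 (0.61 ± 0.07) and Hsd17b12 (0.63 ± 0.11) of the same list of 11 rose and Akr1c19 fell (-0.66 ± 0.13), the last not without DC 3 or RC 2 (limma adjusted p up to 0.055). Without RC 3 Akr1c14 rose as well (0.58).

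Of 6 measured polyamine genes 1 rose, Odc1, which makes putrescine, and its groups overlapped (9.69, 9.27, 9.40 and 9.20 in DC, 10.01, 9.88, 9.66 and 10.02 in RC; 0.50 ± 0.12). Its call ended without any single array other than DC 1 and RC 3, and without RC 3 Azin1 (0.40) and Sat1 (0.64) rose too. Of 20 selenoprotein and antioxidant genes the arrestin Txnip, an inhibitor of thioredoxin that glucose raises, rose from 8.74, 8.09, 8.41 and 8.50 to 9.73, 9.65, 9.42 and 9.84 (1.23 ± 0.12), and Nqo1 fell (-0.62 ± 0.14). The call of Nqo1 ended without DC 2, DC 3, DC 4, RC 1, RC 2 or RC 4 (limma adjusted p up to 0.13), and without RC 3 Txnrd1 (0.36) and Prdx1 (0.44) rose.

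Calls among growth genes depended on how RC 3 was treated. Of 32 cell cycle and replication genes 3 rose (9.4%, against 1.96% of all genes), the ribonucleotide reductase subunit Rrm2 (9.70, 9.23, 9.36 and 9.57 in DC, 10.30, 10.15, 10.15 and 10.24 in RC; 0.75 ± 0.12), cyclin D2 (Ccnd2, 0.66 ± 0.13) and the mitotic kinase Cdk1 (0.49 ± 0.11). Mki67 (0.21), Top2a (0.23) and Pcna (0.19) did not pass. The 3 became 6 without RC 3 (with Ccne1, Tyms and Bub1) or without DC 4 (with Ccna2, Ccne1 and Tyms), and 1 without RC 1 or RC 4. The call of Cdk1 ended without DC 2, DC 3, RC 1, RC 2 or RC 4, and that of Ccnd2 without RC 1 or RC 4. With array weights 16 of the 32 rose and 2 fell, against 9.58% and 9.37% of all genes. The groups did not overlap for 11 of the 32 with all arrays, against 8.44% of all genes. Of 18 nucleolar genes of ribosome biogenesis none passed with all arrays weighted equally, and 10 rose with array weights. Of these 18, 5 rose without RC 3, namely Ncl (0.51), Npm1 (0.42), Nop58 (0.61), Wdr12 (0.29) and Gnl3 (0.46), and 3 rose without DC 1 (Nolc1, Bop1 and Polr1a).

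Of 20 chaperones of the endoplasmic reticulum Dnajb11 rose (0.79 ± 0.15), a call that ended without RC 1 (limma adjusted p = 0.054). Without DC 1, Dnajc3, Creld2 and Manf rose as well, without RC 3 Manf, and without DC 4 Herpud1 fell (-0.30). None of 20 ATF4 and amino acid response genes passed. The smallest p in that list belonged to the glutamine transporter Slc1a5 (0.44 ± 0.11, limma adjusted p = 0.058), which passed without RC 3 or DC 1, and Trib3 (-0.33) passed without DC 4. None of 18 aminoacyl-tRNA synthetases passed, with Wars at 0.30 and Hars at 0.30, and Farsb rose when DC 1 was left out (0.29). With array weights the same lists had 7 chaperones, 1 ATF4 gene and 3 synthetases higher and 1 ATF4 gene lower. Under these weights 9.58% of all genes were higher and 9.37% lower. Among 21 respiratory chain genes, which had a median of 0.17, none passed with all arrays, Cyc1 stood at 0.27, cytochrome c (Cycs) passed without RC 3 (0.50), and 4 rose with array weights. Of 20 lysosome and autophagy genes Wipi1, a protein of the forming autophagosome, rose from 11.32, 10.97, 11.14 and 10.92 to 12.05, 11.97, 11.75 and 12.04 (0.86 ± 0.09), and the initiating kinase Ulk1 fell (-0.38 ± 0.07), the latter not without DC 2, RC 1, RC 2 or RC 4, while without DC 3 Ctsb rose (0.41).

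Of 14 circadian clock genes 4 fell and none rose. The period gene Per3 read 9.18, 9.06, 9.04 and 9.32 in DC and 8.54, 8.69, 8.58 and 8.67 in RC (-0.53 ± 0.07), and the repressor Nr1d1 read 10.70, 10.43, 10.56 and 10.77 and 10.21, 9.92, 10.21 and 10.11 (-0.50 ± 0.09). Both separated the groups on every array. Cry2 (-0.32 ± 0.06) and Ciart (-0.72 ± 0.14) fell as well, the last not without DC 2, DC 3 or RC 2, while Per1 (-0.10), Per2 (0.06), Clock (0.17) and Arntl (0.17) did not pass. The time of harvest was not used here.

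Among 13 angiopoietin, Tie and VEGF genes, the Tie ligand Angpt2 read 7.78, 7.65, 7.25 and 7.70 in DC and 8.71, 8.68, 8.85 and 8.96 in RC and rose by 1.20 ± 0.13. Vegfd fell by 0.51 ± 0.07, and Vegfc rose when RC 3 was left out (0.28). Of 8 endothelial markers none passed, with Kdr at -0.12 and Pecam1 at -0.08. Of 11 ABC efflux transporters Abcb4 rose (0.55 ± 0.06), as did Abcb1b (0.50 ± 0.12), whose groups overlapped and whose call ended without any single array other than DC 1 and RC 3. Without DC 4 Abcc1 fell (-0.29). Of 18 progenitor and neuronal markers the nerve growth factor receptor Ngfr read 9.44, 9.45, 9.46 and 9.45 in DC and 10.38, 10.25, 10.39 and 10.44 in RC, the tightest DC values of the genes described here, and rose by 0.91 ± 0.06. The membrane protein Prom1 fell by 0.73 ± 0.11, and Dcx rose when RC 3 was left out (0.33). None of 15 MHC class I and interferon genes (Tap1 -0.15, Tap2 -0.14), 12 exocrine and duct markers (Krt7 -0.19, Ptf1a -0.14) or 8 immune markers (Itgam -0.11, Cd14 0.09) passed with all arrays or without RC 3. With array weights 2 of the MHC and interferon genes and 3 of the exocrine and duct markers fell, against 9.37% of all genes.

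Probe sets that passed without RC 3 and not with all arrays numbered 1956, 1465 of them higher and 491 lower. At 264 of the 1956 the groups did not overlap even with RC 3, against 2237 of all 35556 (6.29%). The 1956 were picked by a difference of the other RC arrays from DC, so their overlap was limited by that choice. Without RC 3 the differences of the 8 genes named on each side ran from 0.54 to 0.71 among the rises and from -0.66 to -0.40 among the falls. All of the 16 other than Sem1, Shcbp1 and Gem also passed when some other single array was left out. Cenpe and Vsnl1 did so without DC 4, Bex2 without DC 1 and Celsr2 without DC 1, DC 2 or DC 4. Shcbp1, a gene of dividing cells, read 7.87, 7.44, 7.81 and 7.87 in DC and 8.41, 8.30, 7.94 and 8.42 in RC, and its difference was 0.52 ± 0.13 with all arrays (limma adjusted p = 0.065) and 0.63 without RC 3 (limma adjusted p = 0.0092). The kinetochore motor Cenpe read 9.38, 9.05, 9.21 and 9.49 and 9.89, 9.87, 9.51 and 9.97 (0.53 with all arrays and 0.63 without RC 3). In both genes RC 3 lay nearest to the DC arrays without reaching them, the latter being required by the naming rule. The other named rises were Sem1 (0.71 without RC 3), Bex2 (0.65), Gem (0.62), Klhl4 (0.61), Slc35g2 (0.60) and Sdcbp (0.54). The named falls were Vsnl1, a neuronal calcium sensor (-0.66 without RC 3), Pgam1 (-0.65), Egln1 (-0.59), Celsr2 (-0.58), Lyve1 (-0.48), Dipk2a (-0.48), the oestrogen receptor Esr1 (-0.45) and Olfm2 (-0.40). With all arrays the adjusted p of the 16 ran from 0.053 to 0.097 in limma.

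In some named genes the RC arrays lay outside the levels of both DC and CC. Sst read 12.03 to 12.39 in RC against a CC mean of 11.81, and Akr1c18 8.72 to 9.32 against 7.77. Ngfr read 10.25 to 10.44 against 10.02, and Insrr 8.88 to 9.11 against 9.65. In each of these the RC values were on the far side of CC as seen from DC. In others RC lay between DC and CC, as in Tacr3, at 8.61 to 8.86 against a DC mean of 7.76 and a CC mean of 9.68, and in Mt1, at 12.58 to 12.66 against a DC mean of 13.13 and a CC mean of 12. RC and CC were not tested against each other here.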

How the data were processed

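Measurements are log2 expression values as deposited by the authors, 1 for each of 35556 probe sets on each of 12 arrays, and their range (3.69 to 14.5) fits that scale. Total RNA from T75 flasks was made into biotinylated cDNA for hybridisation, per the labels' protocols. The values were used as deposited (software and settings of summarisation and normalization: not given in the sources used here). Neither background intensity nor scan date or batch was used, so no level was set against background. Precision is limited by the number of arrays. Titles of the samples gave groups and replicate numbers.

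Gene names come from the platform annotation supplied with the series. Of the 35556, 21789 carry 1 gene symbol, 1621 several and 12146 none, and 21698 of those with 1 were matched to RefSeq (GRCm38.p6), which changed 0 symbols. Genes were named only from probe sets with 1 symbol. The promoter windows carry RefSeq's coordinates (build behind the deposited values: not given in the sources used here). There are 701 probe sets that repeat the values of another.

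All 12 arrays entered a linear model of the 3 conditions in limma 3.58.1 and R 4.3.3 (lmFit, contrasts.fit and eBayes; 9 residual degrees of freedom), and RC minus DC was tested, two-sided, with Benjamini-Hochberg adjustment over all 35556 probe sets and a threshold of 0.05. A gene called, risen or fallen passed that threshold. The standard error of a difference is limma's moderated one. The procedure was tested on simulated data. Gene lists (46, of 738 symbols, 687 of which have a probe set; the others are not analysed here) were described by counts and medians, with the brightest probe set standing for a gene.

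The members and lists were chosen with earlier results of these data known. Genes were named by a rule: Hes3 and Ins2; the 15 highest rises and 15 largest falls called with all arrays and without RC 3, with no overlap of the groups and the higher mean above the median of all values, leaving out predicted, clone-named, microRNA, small nucleolar and olfactory receptor genes; up to 4 called members of each list, or the 2 with the smallest p; and the 8 largest rises and falls called without RC 3 and not with all arrays. Other list members were named after their values were seen. Alternatives were each array left out, the replicate number as a block, median centring, quantile normalization, array weights, the 8 RC and DC arrays alone, dim or repeated probe sets left out, and a trended robust prior. The fit of the 8 arrays without RC 3 was added after seeing the data.

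Same-numbered DC and RC arrays did not deviate together (correlations of their deviations from the group means 0.32, -0.27, -0.36 and -0.36), so the numbers were not taken to pair the samples. The deviations of RC 3 correlated at 0.53 with those of DC 2 and 0.35 with DC 4, and at -0.41 with DC 1 and -0.36 with DC 3. What these arrays share was not tested.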

Additional observations from a re-analysis of the deposited data

Results flagged for a closer look

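In 15 of 294 groups of 4 arrays checked (147 named probe sets in DC and in RC), 1 array lay far from the other 3, where chance gives about 1 in 20 such groups. RC 3 was that array 4 times and DC 4 once. On RC 3, Kdm3a read 9.32 against 9.90 to 10.00 on the other RC arrays, Gem 9.10 against 9.46 to 9.50, the brightest probe set of Socs2 8.44 against 8.24 to 8.25 and Ulk1 9.50 against 9.40 to 9.41. On RC 2, Id1 read 9.67 against 9.84 to 9.86, Egln3 7.86 against 8.17 to 8.22 and Fasn 11.59 against 11.46 to 11.47. Pfkl read 9.69 on RC 4 against 9.49 to 9.50, and Nr4a3 7.85 on RC 1 against 7.73 to 7.74.

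Among the DC arrays, Ccdc80 read 8.52 on DC 1 against 7.92 to 7.94. On DC 2, Calb1 read 7.28 against 7.59 to 7.63 and Shcbp1 7.44 against 7.81 to 7.87. On DC 3, Msmo1 read 12.12 against 11.81 to 11.86 and Akr1b8 6.41 against 6.57 to 6.59. Lss read 10.46 on DC 4 against 10.80 to 10.87. All but Shcbp1 and Gem of these genes were called with all arrays, and Egln3 lost its call without RC 2.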

How the results depend on the processing

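With array weights, which gave RC 3 a weight of 0.161, 6413 probe sets were called (3782 higher and 2631 lower in RC) and 256 list members, against 936 (516 and 420) and 132. The fit of the 8 RC and DC arrays alone called 462 (261 and 201) and that of these arrays without RC 3, added after seeing the data, 1901 (1400 and 501). Leaving out 1 array gave 522 to 2892 calls, 280 to 1981 higher, 242 to 911 lower and 94 to 168 list members. The share higher was 55.1% with all arrays, 68.5% without RC 3 and 73.6% in the added fit, and quantile normalization gave 616 higher and 619 lower. Without DC 4 there were 403 higher and 458 lower. The causes were not tested. The replicate number as a block gave 689 calls (406 and 283), 668 of them among the 936, and 113 list members. Median centring (728), dim probe sets left out (1076), repeated ones counted once (939) and the trended robust prior (890) stayed within 1.5 times.

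The difference of Hes3, 0.02 and not called, was -0.08 with array weights, -0.05 in the added fit and -0.05 to 0.07 with 1 array left out (-0.05 without RC 3, -0.04 without DC 1). Of the other comparisons of a named probe set under an alternative, 2757 kept their side of the threshold, 211 lost a call and 105 gained one, with no change of direction. The calls lost in the fit of 8 arrays numbered 27, among them Slc2a1, Kdm3a and Slc30a8, and the block lost 9. No probe set could be set against background, so low levels have no detection limit here.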
